A study of Rattus norvegicus with 10 samples.

Results

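Activity-induced immediate early genes were followed in the brain of calorie-restricted rats: the transcription factor genes *Fos*, *Jun*, *Junb*, *Egr1*, *Nr4a1* and *Nr4a3*, the phosphatase genes *Dusp1* and *Dusp6*, and the synaptic genes *Arc* and *Homer1*. A probe set is the group of short probes that measures 1 transcript. Probe sets were taken where the array annotation gave a listed gene as the only symbol. For *Fos*, the probe set with the highest mean log2 signal was also taken by its identifier. This gave 22 probe sets for 10 genes, out of 20832 probe sets with 1 symbol for 14217 genes and 31099 probe sets in all. The samples were male Wistar rats, an outbred strain, bought at 5 weeks of age, fed freely for 1 week and then given their recorded daily intake (control) or 5, 10, 20 or 30% less of it (calorie restriction, CR) for 1 week. All 5 groups were fasted for 16 h and anesthetized with ether before sampling. The labels give the tissue as brain, and the methods of the study place it in the hypothalamus area, which governs feeding. RNA of 5 rats per group was pooled on 1 Affymetrix array, so no group had a second array, the number of arrays limits the precision of every value, and the spread between rats was not measured. The 1 month arrays were not used for the genes, since their rows do not follow the probe set identifiers (across probe sets, their log2 signals had correlations of only 0.0357 to 0.0524 with those of 1 week).

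Immediate early genes are transcribed within minutes of a stimulus without new protein synthesis. In neurons, calcium entry and growth factor signals activate the kinases ERK, RSK and CaMK, which act on CREB, SRF and its ETS partners bound at these promoters. FOS and JUN proteins pair to form the AP-1 factor, EGR1 and the NR4A nuclear receptors switch on later genes, ARC and the short HOMER1 protein adjust receptors at the synapse, and DUSP1 and DUSP6 remove the activating phosphates from MAP kinases. In the hypothalamus, Fos is widely used as a marker of recently active neurons, also in work on fasting and feeding.

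Promoters of the members are shown for the letters that the upstream factors are known to bind, since CREB and SRF act on these genes. RefSeq (GRCr8) gave an entry for 6 of the 10 genes, *Egr1*, *Nr4a1*, *Junb*, *Dusp6*, *Dusp1* and *Homer1*, and the 250 bases before the start were searched on both strands for the CRE (TGACGTCA), its core (TGACG, which also lies within the CRE), the SRF-binding CArG box, the AP-1 site (TGACTCA), an EGR site (GCGTGGGCG), the TATA box (TATAAA) and an ETS core (CCGGAAG). The windows of *Egr1*, *Nr4a1*, *Dusp6* and *Dusp1* are printed 5' to 3', with CRE, CRE core and CArG letters in capitals. By the brightest probe set *Egr1* was called lower and *Dusp6* higher. *Nr4a1*, though below control on all 4 CR arrays, and *Dusp1* were not called. Those of *Junb* and *Homer1*, also not called, are not printed.
Egr1, chr18:26736828-26737077, + strand: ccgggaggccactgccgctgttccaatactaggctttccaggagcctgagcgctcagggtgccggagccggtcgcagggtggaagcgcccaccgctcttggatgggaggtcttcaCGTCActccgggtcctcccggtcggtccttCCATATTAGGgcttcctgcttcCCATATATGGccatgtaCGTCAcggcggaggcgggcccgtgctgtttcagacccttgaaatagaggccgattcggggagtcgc
Nr4a1, chr7:134259888-134260137, + strand: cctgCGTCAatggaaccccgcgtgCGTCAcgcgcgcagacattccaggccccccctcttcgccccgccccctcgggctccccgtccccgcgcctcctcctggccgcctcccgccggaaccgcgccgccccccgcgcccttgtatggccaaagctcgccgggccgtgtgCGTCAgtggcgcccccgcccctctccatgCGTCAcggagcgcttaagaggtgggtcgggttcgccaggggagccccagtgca
Dusp6, chr7:35979354-35979603, + strand: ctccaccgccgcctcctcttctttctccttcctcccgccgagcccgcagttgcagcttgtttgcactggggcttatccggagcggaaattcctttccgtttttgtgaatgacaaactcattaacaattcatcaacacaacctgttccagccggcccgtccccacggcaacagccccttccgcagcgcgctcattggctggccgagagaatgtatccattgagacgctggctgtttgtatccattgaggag
Dusp1, chr10:17184603-17184852, + strand: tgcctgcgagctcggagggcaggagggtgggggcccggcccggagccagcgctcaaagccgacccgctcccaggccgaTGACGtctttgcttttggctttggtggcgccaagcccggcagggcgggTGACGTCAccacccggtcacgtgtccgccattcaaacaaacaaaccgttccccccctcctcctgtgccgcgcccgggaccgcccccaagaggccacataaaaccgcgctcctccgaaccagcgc

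*Egr1* held 2 CArG boxes, at 105 to 96 and 83 to 74 bases before the start, and 2 CRE cores. A CArG box lay in 1.5% of 33469 promoters of this length. *Nr4a1* held 4 CRE cores, at 246 to 242, 226 to 222, 82 to 78 and 53 to 49 bases before the start, and the *Dusp1* promoter held the full CRE at 124 to 117, which 1.59% of all promoters had. The CRE core was found in 4 of the 6 members (*Egr1*, *Nr4a1*, *Junb* and *Dusp1*) and in 18.2% of all promoters. CRE, CRE core and CArG letters do not occur in the windows of *Dusp6* and *Homer1*, and the AP-1, EGR and ETS letters, held by 4.05, 0.478 and 7.27% of all promoters, were in 0 of the 6. *Homer1*, without these letters, was below control on all 4 CR arrays by its brightest probe set. *Junb*, with a CRE core, was above control on 3 of them. Whether the letters go with the direction of change was not tested. The TATA letters were in *Homer1* and *Junb* and in 12.9% of all. The GC content of the 6 windows ran from 46.4% (*Homer1*) to 74.8% (*Nr4a1*), with 55.6% in *Dusp6* and a median of 51.2% over all promoters. A match is a run of letters, and binding was not measured.

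The control array was less like the CR arrays than these were like each other. Correlations of log2 signal across probe sets were 0.852 to 0.874 between it and the 4 CR arrays and 0.912 to 0.922 among the latter. Signals under 10 made up 24.0% of its values against 11.7 to 14.4%. The poly-A spike-ins added before labelling were higher on it in 12 of 12 probe sets, by a median log2 of 1.29 over the mean of the CR arrays. The hybridization spike-ins were higher on it in 3 of 9, with a median log2 difference of -0.03. Its 3'/5' signal ratios were below those of all 4 CR arrays (log2 0.19 against 0.40 to 0.79 for GAPDH). Every comparison with control below uses this array, and the part of these differences in any result was not tested.

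In CR brain, *Fos*, *Egr1* and *Nr4a3* were lower and *Jun* and *Dusp6* higher than in control by the brightest probe set of each gene, the one with the highest mean log2 signal. Of the 22 probe sets, 14 lay above a filter on low values (mean log2 signal above the 50th percentile, equal to a signal of 53.33) and were tested among 15521 with limma. CR at all 4 levels was taken as 1 arm against the control array, with Benjamini-Hochberg adjustment over all probe sets and a threshold of 0.05. Called higher were 3 probe sets (1 of *Jun*, 2 of *Dusp6*), beside 14.5% of all those tested, and called lower were 3 (of *Fos*, *Egr1* and *Nr4a3*), beside 11.0%. The 3 called lower are the same probe sets that the study listed as lower in brain at every CR level, from data that include these arrays. Members were chosen with earlier results of these data known. The count called lower and its share are therefore no independent support. The other 8 tested probe sets passed in neither direction. By the brightest probe set of each gene, 9 of the 10 members were tested, 2 were higher (11.6% of 9479 genes tested) and 3 lower (11.3%), and *Arc* fell below the filter. The median log2 difference of these 9 was -0.43, against -0.02 over all genes tested. Over the 14 member probe sets tested the median was -0.23, against 0.03 over all probe sets tested. As the members were chosen with earlier results known, these medians are no independent support either.

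**Figure D1:**
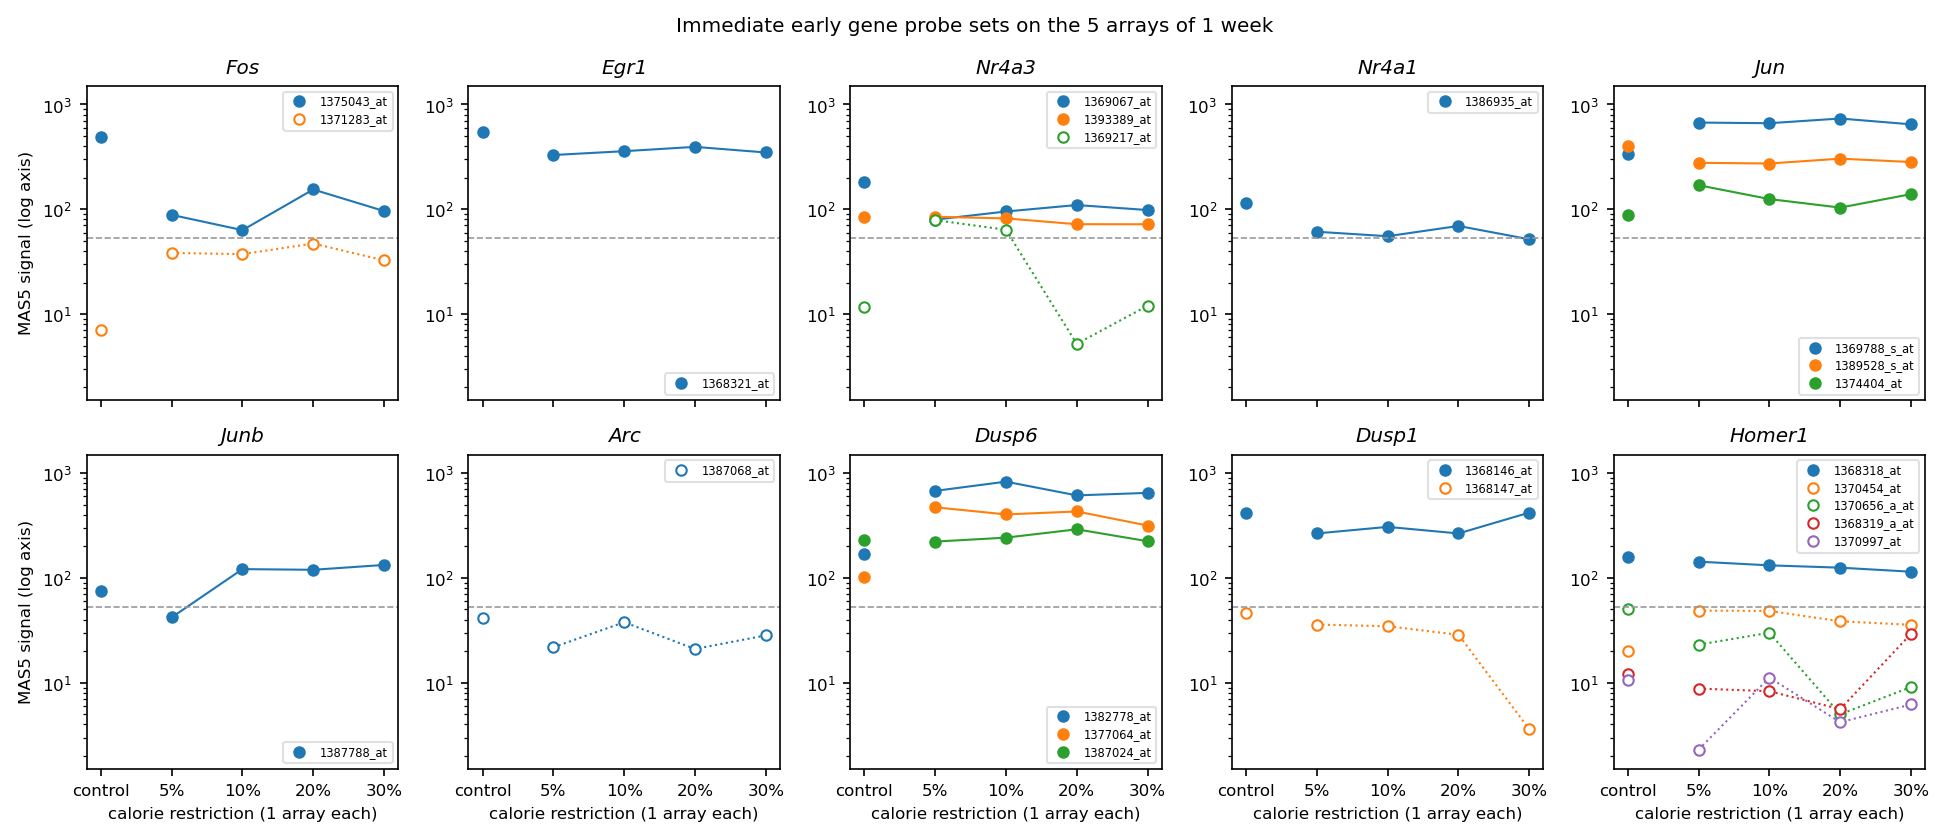
MAS5 signal (log axis) of the 22 probe sets of the 10 immediate early genes on the control array and on the arrays of 5, 10, 20 and 30% CR, 1 array each. Filled points are probe sets above the filter on low values (dashed line at a signal of 53.33 for the mean over arrays), open points are those below it, and lines join the CR arrays only; the brightest *Fos* probe set and those of *Egr1* and *Nr4a1* sat below their control point on all 4 CR arrays, and both brighter *Dusp6* probe sets sat above it.

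The spread among the CR arrays differed between members. The SD of log2 signal over these 4 arrays had a median of 0.19 for the 14 probe sets tested and 0.20 for all 15521, but *Junb* (0.79) and the brightest *Fos* probe set (0.53) lay above the 90th percentile of all those tested, 0.44. Below the filter the median was 0.72 over the array, and a member probe set, of *Nr4a3*, reached 1.90. In the text below, a difference is log2 signal, mean of the 4 CR arrays minus control, ± the SD over these arrays (n = 4), and the SE and 95% interval come from the fit. Median scaling, in which each array is centred on its own median log2 signal in place of the deposited scaling, moved the median difference of all probe sets tested from 0.03 to -0.41, and values under it include this shift. As the tissue was measured in bulk, fewer cells expressing a gene and less RNA per cell cannot be told apart.

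*Fos*, whose protein is an inducible partner in AP-1, had a signal of 489.9 on the control array and 88.4, 63.2, 154.4 and 96.1 at 5, 10, 20 and 30% CR (brightest probe set). This probe set was taken by its identifier, and the study lists it without a gene symbol. All 4 CR arrays were far below control, with the 20% array the closest. The difference was -2.36 ± 0.53 (SE 0.40, 95% interval -3.25 to -1.47, limma adjusted p = 0.00283), a 5.13-fold lower mean, and it ranked 44 from the lowest of 15521. The call held in all 11 alternative settings that tested this probe set. A dimmer probe set of *Fos*, 1371283_at, ran the other way: its signal was 7.1 on the control array and 38.3, 37.3, 47.1 and 32.5 on the CR arrays, all 5 below the filter. Its difference was 2.44 ± 0.22 and was not tested at the main filter. In the fit without a filter it was called higher (limma adjusted p = 0.0245), while the brightest probe set was called lower there too (0.00438). The mean of both probe sets put *Fos* at 0.04.

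*Jun*, the main partner of FOS, had 3 probe sets that did not move together. The brightest, 1369788_s_at, read 335.0 on the control array and 671.7, 662.4, 734.3 and 646.2 at 5, 10, 20 and 30% CR. Every CR array was above the control, and the arrays lay close to each other. The difference was 1.02 ± 0.08 (SE 0.14, 95% interval 0.71 to 1.32, limma adjusted p = 0.000944), a 2.02-fold higher mean that was called in 12 of 12 alternatives. Probe set 1389528_s_at read 397.4 on the control array and 277.5, 273.2, 304.0 and 282.3 on the CR arrays. These 4 were all lower than control (-0.48 ± 0.07, 95% interval -0.85 to -0.12), and limma's adjusted p of 0.0533 missed the threshold; it was 0.00236 with median scaling and 0.0428 with a filter at the 75th percentile. Probe set 1374404_at, which the annotation ties to the same expressed sequence tag as 1389528_s_at, read 88.4 on the control array and 169.6, 125.1, 103.7 and 139.4 on the CR arrays. Its 4 CR arrays were all above control, by 0.58 ± 0.30, without passing the test (limma adjusted p = 0.185). The mean of the 3 probe sets was 0.37.

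*Junb*, a JUN relative that pairs with FOS proteins and tempers JUN, read 75.4 on the control array and 42.0, 121.4, 119.6 and 133.1 at 5, 10, 20 and 30% CR. The 5% array lay below control and the other 3 above it. The difference of 0.33 ± 0.79 was not called (95% interval -0.93 to 1.59, limma adjusted p = 0.707), and turned to -0.11 with median scaling. Without the 5% array it was 0.72 (limma adjusted p = 0.0969).

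Among the other members of the AP-1 family only *Jund*, the constitutive JUN relative, was above the filter. Its signal was 1365.5 on the control array and 956.0 to 1363.2 on the CR arrays, a difference of -0.14 (limma adjusted p = 0.616). *Fosb*, a FOS paralog that forms the long-lived ΔFosB in stimulated neurons, read 28.6 on the control array and 44.8 to 63.2 on the CR arrays, below the filter and not tested. *Fosl1* (12.2 against 22.8 to 54.0) and *Fosl2* (4.6 against 12 to 57.4) also lay below it. In all, 1 of 8 genes of this list was tested and 0 were called by limma at the main setting (0 also at an unadjusted p under 0.05), with *Jund* called lower under median scaling alone of the 3 scalings tried.

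*Egr1*, a zinc finger factor induced by ERK and SRF, read 542.8 on the control array and 329.3, 358.2, 393.8 and 348.1 at 5, 10, 20 and 30% CR. All 4 CR arrays were below control and within a narrow band. The difference was -0.61 ± 0.11 (SE 0.16, 95% interval -0.96 to -0.25, limma adjusted p = 0.0204), a 1.52-fold lower mean. It was called in 10 of 12 alternatives and lost with quantile scaling (adjusted p = 0.0538) and without the intensity trend (0.0606).

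*Nr4a3*, an orphan nuclear receptor, read 180.3 on the control array and 79.6, 95.2, 109.7 and 98.3 at 5, 10, 20 and 30% CR (1369067_at). All 4 CR arrays were below control. The difference was -0.92 ± 0.19 (SE 0.28, 95% interval -1.55 to -0.30, limma adjusted p = 0.037), a 1.90-fold lower mean. The call was kept in 8 of 11 alternatives and lost with quantile scaling (adjusted p = 0.055), without the 5% array (0.0567) and without the 10% array (0.0565). The second probe set, 1393389_at, read 85.2 on the control array and 84.8, 81.8, 72.0 and 71.9 on the CR arrays. Its difference, -0.14 ± 0.12, was not called (95% interval -0.85 to 0.57, limma adjusted p = 0.785). A dim probe set, 1369217_at, scattered on both sides of control (11.6 against 78.8, 63.7, 5.2 and 12) and was not tested. The mean of the 3 probe sets was -0.01.

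*Nr4a1*, the paralog first described as NGFI-B, read 113.5 on the control array and 61.0, 55.3, 69.3 and 51.7 at 5, 10, 20 and 30% CR. All 4 were below control, and the drop was close in size to that of *Nr4a3*. The difference of -0.94 ± 0.18 (SE 0.36, 95% interval -1.75 to -0.14) missed the threshold (limma adjusted p = 0.0823). It was called in 3 of 11 alternatives, with median scaling (0.0118), cyclic loess (0.0246) and no intensity trend (0.0331).

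Of the other EGR and NR4A genes and their corepressors, 3 of 6 were tested and 1 was called higher, beside 11.6% of all genes tested. It was *Nab2*, a corepressor that binds EGR1 and is itself induced by it. Its signal was 60.7 on the control array and 116.7 to 171.4 on the CR arrays, a difference of 1.30 ± 0.24 (limma adjusted p = 0.00845) called in all 11 alternatives. *Nr4a2*, the third NR4A receptor, read 92.4 on the control array and 66.0 to 96.5 on the CR arrays and was not called (-0.24, limma adjusted p = 0.647). *Egr3* read 13.9 on the control array and 21.1 to 102.7 on the CR arrays, below the filter, as were *Egr2* (24.1 against 19.7 to 44.6) and *Egr4* (19.7 against 13.6 to 31.3).

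*Dusp6*, the cytoplasmic phosphatase that removes phosphate from ERK, showed the largest rise among the member probe sets tested. Probe set 1382778_at read 167.5 on the control array and 677.1, 829.5, 613.3 and 648.2 at 5, 10, 20 and 30% CR. Every CR array was well above control. The difference was 2.04 ± 0.19 (SE 0.18, 95% interval 1.64 to 2.43, limma adjusted p = 0.000222), a 4.10-fold higher mean that ranked 314 from the highest of 15521. Probe set 1377064_at gave nearly the same size: 101.8 on the control array and 472.4, 403.8, 430.8 and 316.4 on the CR arrays, a difference of 1.98 ± 0.25 (limma adjusted p = 0.000411). The third, 1387024_at, read 229.2 on the control array and 222.2, 242.4, 291.1 and 224.1 on the CR arrays. It lay on both sides of control and was not called (0.09 ± 0.18, 95% interval -0.37 to 0.55, limma adjusted p = 0.79). The mean of the 3 was 1.37.

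*Dusp1*, a nuclear phosphatase of ERK, JNK and p38, read 417.5 on the control array and 265.9, 307.0, 265.8 and 420.0 at 5, 10, 20 and 30% CR (1368146_at). The 5, 10 and 20% arrays were below control and the 30% array was level with it. The difference of -0.43 ± 0.31 was not called (95% interval -0.98 to 0.12, limma adjusted p = 0.225). Without the 30% array it was -0.58 and passed (limma adjusted p = 0.0405), and with median scaling it was -0.87 (0.0224). The dimmer 1368147_at read 46.0 on the control array and 35.9, 34.6, 28.7 and 3.6 on the CR arrays and was not tested.

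Other MAP kinase phosphatases and inhibitors of ERK signalling had 6 of 14 genes tested, 1 higher and 0 lower by limma at the main setting (1 and 1 at an unadjusted p under 0.05), beside 11.6 and 11.3% of all genes tested. The higher gene was *Dusp7*, a cytoplasmic ERK phosphatase of the same subfamily as *Dusp6*. Its signal was 206.0 on the control array and 528.4 to 652.1 on the CR arrays, and the difference of 1.51 ± 0.13 (limma adjusted p = 0.000349) was called in all 12 alternatives. The median of the 6 was -0.09, against -0.02 over all genes tested.

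*Arc*, whose protein draws AMPA receptors out of the synapse, had a single dim probe set that was not tested. It read 41.8 on the control array and 21.8, 37.8, 21.0 and 28.3 at 5, 10, 20 and 30% CR, so that all 4 CR arrays were below control. The difference was -0.66 ± 0.39, and 36.4% of the array's probe sets were dimmer. It was -1.10 with median, -1.23 with quantile and -1.42 with cyclic loess scaling. In the fit without a filter limma gave an adjusted p of 0.513.

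*Homer1*, which codes for a scaffold of metabotropic glutamate receptors in long forms and an activity-induced short form, was led by 1368318_at. It read 159.6 on the control array and 143.0, 131.9, 125.3 and 114.7 at 5, 10, 20 and 30% CR. All 4 were below control, and the difference of -0.31 ± 0.13 was not called (95% interval -0.85 to 0.22, limma adjusted p = 0.369), except with median scaling (-0.75, adjusted p = 0.0309). The other 4 probe sets were below the filter. Probe set 1370454_at was above control on every CR array (20.2 against 48.8, 48.4, 38.6 and 35.7), and 1370656_a_at was below it on every CR array (50.5 against 23.1, 30.0, 5.0 and 9.1). The last pair, 1368319_a_at and 1370997_at, had signals from 2.3 to 29.3 over the 5 arrays, on both sides of control. Which transcript form each probe set reads was not determined here, so no value is given for the short form.

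**Figure D2:**
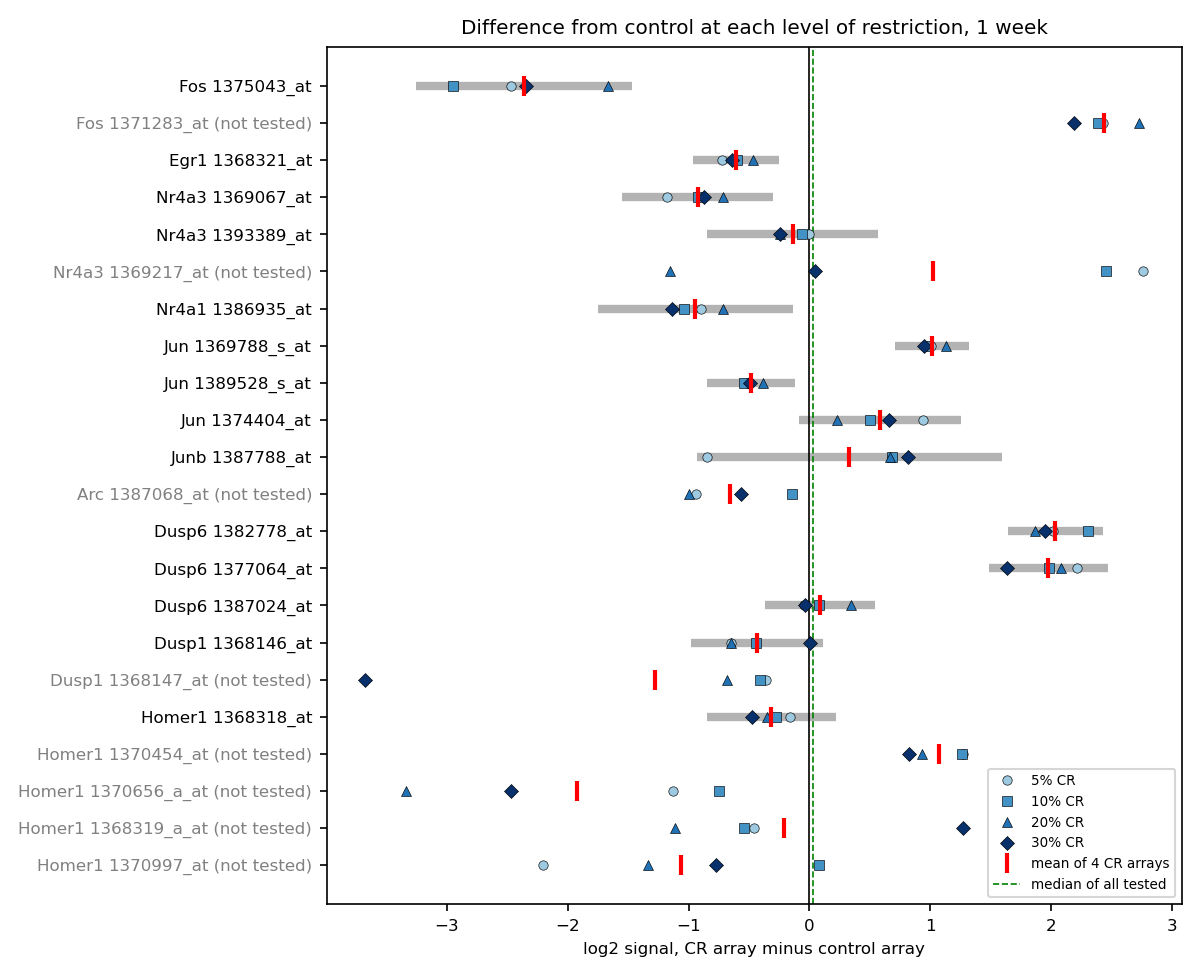
Log2 signal of each CR array minus the control array (x axis) for the 22 probe sets of the 10 genes (rows), with the mean of the 4 CR arrays as a red bar and, for the 14 probe sets tested, the 95% interval of the fit in grey. Rows in grey letters lay below the filter and were not tested; the 2 called *Dusp6* probe sets lie near 2.04 and 1.98 and the called *Fos* probe set at -2.36, while the second *Fos* probe set lies at 2.44, and the green dashed line marks the median of all probe sets tested, 0.03.

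For the 6 members with several probe sets, the direction could depend on the probe set. On the 22 probe sets, all 4 CR arrays were above control in 6, below it in 10 and on both sides in 6. Opposite sides with all 4 CR arrays occurred within *Fos*, *Jun* and *Homer1*. A called probe set beside a tested one that was not called occurred within *Jun*, *Dusp6* and *Nr4a3*. At the main setting no member had probe sets called in opposite directions. Without a filter the 2 probe sets of *Fos* were. With median scaling and with the filter at the 75th percentile, *Jun* had 1369788_s_at called higher and 1389528_s_at lower. Over the array, 1873 genes had several probe sets tested, and 75 of them (4.0%) had a higher and a lower call. Of the 899 such genes with any call, 727 also had an uncalled probe set. Positions of the probes on the transcripts were not used here, and the part of transcript forms in these differences was not tested.

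The ratio of single arrays gave a second count with no test. It uses the same 5 arrays and the same members, chosen with earlier results of these data known, so it is no independent support. Past 1.5-fold on all 4 CR arrays were 3 of the 14 tested probe sets upward (12.4% of all tested), the same 3 probe sets of *Jun* and *Dusp6* as above, and 3 downward (7.44% of all tested), of *Fos*, *Nr4a3* and *Nr4a1*. *Egr1* stayed inside this limit at 20% CR. Level by level, 4 of the 14 were past 1.5-fold upward at 5, 10 and 20% CR and 5 at 30% CR, beside 19.5 to 22.6% of all probe sets tested. Downward there were 6 at 5% CR and 4 at each other level, beside 13.7 to 17.1%.

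**Figure D3:**
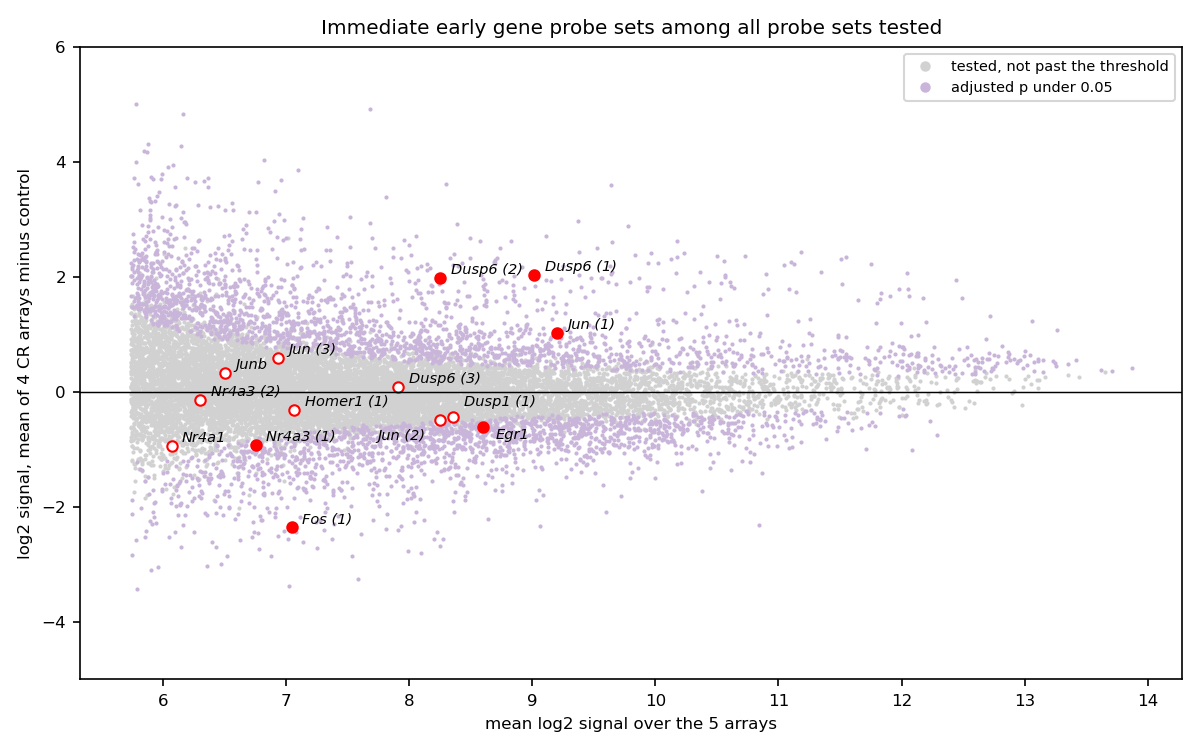
Mean log2 signal over the 5 arrays (x axis) against log2 signal, mean of 4 CR arrays minus control (y axis), for the 15521 probe sets tested, with those past the threshold in violet and the 14 immediate early gene probe sets as red circles, filled where called. Numbers in brackets order a gene's probe sets by brightness; *Fos* (1) lies at the lower edge of the cloud, and the 2 called *Dusp6* probe sets lie among the higher ones.

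No difference by level of restriction was called in these genes. For the slope of log2 signal over CR level on the 4 CR arrays, 0% of the 15521 probe sets were called by limma, with 743 at an unadjusted p under 0.05. For 20 and 30% CR against 5 and 10% CR, 0% were called, with 783 at an unadjusted p under 0.05 and 1 called with robust eBayes. The smallest adjusted p of a member was 0.999 for the slope and 0.937 for the other comparison. The brightest *Fos* probe set was 0.70 higher at the 2 stronger levels, with a 95% interval that included 0 (-0.05 to 1.46). *Junb*, with a slope of 0.51 per 10% of restriction (SE 0.21), and *Dusp6* probe set 1377064_at, with one of -0.19 (SE 0.08), were the 2 member probe sets among the 743, and both failed the adjustment. The 95% interval of the difference between stronger and milder levels reached from -0.56 to 0.06 for *Dusp6* (1382778_at), from -0.23 to 0.32 for *Jun* (1369788_s_at) and from -0.22 to 0.44 for *Egr1*. These comparisons do not use the control array, and with 2 residual degrees of freedom they leave room for changes of those sizes.

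Genes with a known response to neuronal activity, other than the members and their families, were lower or not called. Of 41 listed, 36 were on the array, 25 were tested, 0 were higher and 6 lower by limma at the main setting (0 and 10 at an unadjusted p under 0.05), beside 11.6% of all genes tested higher and 11.3% lower, with a median of -0.21 against -0.02 over all genes. Quantile scaling gave 0 higher and 6 lower and cyclic loess 0 and 7. Median scaling gave 15 of the 25 lower, where 36.2% of all genes tested were. This list, like the other related lists, was chosen with earlier results of these data known. Its counts and median are therefore no independent support. *Bdnf*, the neurotrophin induced by calcium and CREB, read 246.4 on the control array and 66.6, 81.2, 57.8 and 60.0 at 5, 10, 20 and 30% CR. All 4 CR arrays were far below control, and the difference was -1.90 ± 0.22 (limma adjusted p = 0.00283). *Rgs2*, a G protein regulator, read 695.6 on the control array and 259.6 to 352.9 on the CR arrays (-1.20, limma adjusted p = 0.00191). *Rasd1*, a small G protein induced by glucocorticoid, read 173.4 against 65.3 to 99.2 (-1.11, limma adjusted p = 0.0371), a call kept in 9 of 11 alternatives (adjusted p up to 0.054). *Crem*, which codes for a CREB relative and its inducible repressor form, read 315.0 against 152.2 to 207.8 (-0.82, limma adjusted p = 0.0227). *Nrn1*, a neurite growth factor, read 616.9 against 351.7 to 394.9 (-0.71, limma adjusted p = 0.00737). *Per1*, a clock gene with CREs, was not called (101.6 against 67.5 to 128.6, -0.17, limma adjusted p = 0.776).

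Kinases and factors upstream of these genes moved in both directions. Of 31 listed, 21 were tested, 4 were higher and 2 lower, beside 11.6 and 11.3% of all genes tested, with a median of 0.13. *Mef2a* (192.0 against 336.9 to 559.9, 1.20, limma adjusted p = 0.0061) and *Mef2c* (375.2 against 610.6 to 898.3, 0.95, 0.00759), both activity-dependent MADS-box factors, were higher. *Rps6ka3*, the kinase RSK2, was higher by 0.92 (limma adjusted p = 0.00622) and the ETS factor gene *Elk4* by 0.83 (0.0241). *Mapk9*, the kinase JNK2 that phosphorylates JUN, read 322.8 against 94.3 to 165.2 and was lower (-1.40, limma adjusted p = 0.00792). *Map2k1*, the ERK activator MEK1, named after its value was seen, was the other lower gene (-0.77, limma adjusted p = 0.00661). *Mef2c* and *Elk4* were each called in 10 of 12 alternatives. Quantile and cyclic loess scaling both gave 4 higher and 2 lower, and the fit without the intensity trend gave 2 and 2. Median scaling, with its shift of all probe sets, gave 1 higher and 6 lower, where 4.01 and 36.2% of all genes tested were.

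Partners of *Homer1* and *Arc* at the synapse had 13 of 16 genes tested, 1 higher and 1 lower, shares below those of all genes tested (11.6 and 11.3%), with a median of -0.08. *Sh3gl3*, an endophilin that binds ARC, read 468.6 on the control array and 87.8 to 209.8 on the CR arrays (-1.67, limma adjusted p = 0.0116). *Shank1*, a scaffold that binds HOMER1, read 790.6 against 1007.9 to 1209.3 (0.48, limma adjusted p = 0.025), and its difference was 0.04 under median scaling. Without the intensity trend neither was called, and under median scaling *Shank1* was no longer called and 5 of the 13 were lower, beside 36.2% of all genes.

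**Figure D4:**
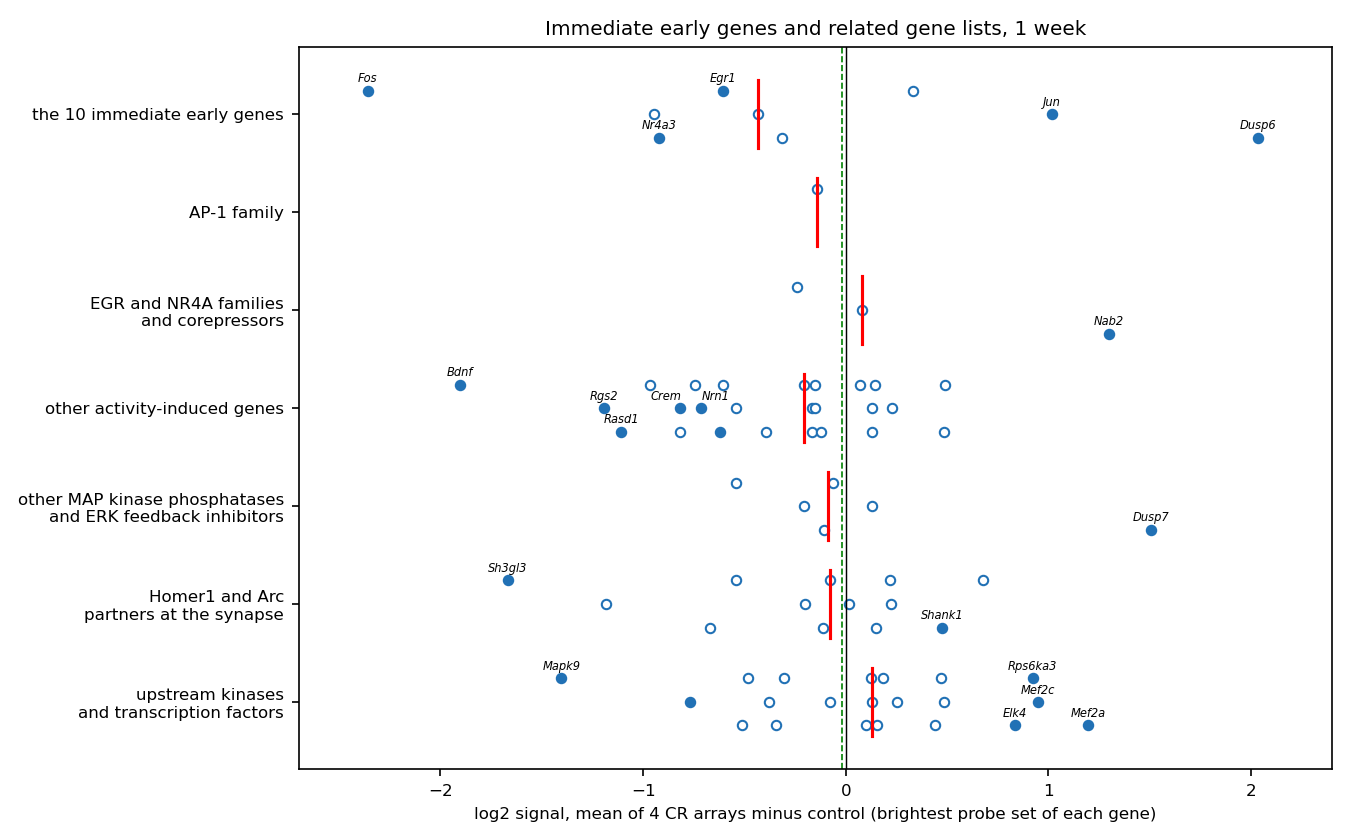
Log2 signal, mean of 4 CR arrays minus control (x axis), by the brightest probe set of each gene tested, for the 10 immediate early genes and 6 related lists (rows; the vertical spread within a row has no meaning). Filled points passed the limma test and the up to 5 furthest from 0 are named, red bars are list medians and the green dashed line is the median of all genes tested, -0.02; the called members of the activity-induced list all lie left of 0.

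Several hypothalamic markers were strong on all arrays and others were dim. Their summed signal was 20238 on the control array and 21844 to 24093 on the CR arrays, with *Pmch* (7157), *Oxt* (3848) and *Avp* (3721.5) high on the control array, and of 10 markers tested *Npy* and *Sst* were higher and *Trh* lower (called markers are named after their values were seen). *Pomc* read 2.6 on the control array and 4.9 to 14.8 on the CR arrays and *Sim1* 23.7 against 18.8 to 50.2, both below the filter, and *Crh* was close to it at 79.6 against 52.2 to 79.5. Markers of other tissues and cell types that could lie in such a sample also differed between the control and CR arrays. The 8 pituitary markers summed to 992.9 on the control array and 2056.7 to 2866.8 on the CR arrays, 3 of 3 tested (*Tshb*, *Lhb* and *Cga*) were higher, and the defining *Prl* and *Gh1* stood at 0.6 and 10.7 on the control array and at most at 29.8 and 50.6 on a CR array. On the control array *Tshb* (43.3), *Lhb* (33.6) and the choroid plexus marker *Ttr* (35.5) lay under the filter limit of 53.33. They passed the filter only through their CR arrays, so a higher call was favoured in advance. The 7 choroid plexus markers summed to 186.2 against 392.6 to 464 (1 of 2 higher, *Ttr*), the 7 cortical and hippocampal ones to 668.1 against 937.1 to 999.1 (1 of 2 higher, *Prox1*) and the 8 thalamic ones to 5298.6 against 4238.6 to 4371.9 (2 of 7 lower, *Calb2* and *Cbln1*). The thalamic sum was mostly *Slc17a6* (2149.9 on the control array) and *Calb2* (1773.7). Its uncalled markers went both ways: *Slc17a6* and *Rora* were below control on all 4 CR arrays. *Tcf7l2* (465.8 against 498.6 to 594.5) and *Lef1* (120.1 against 147.7 to 186.3) were above it. Of 9 oligodendrocyte markers 3 were lower, *Mog* (-1.35), *Mal* (-1.26) and *Ugt8* (-1.36), with sums of 26242 against 24002 to 26140. The striatal sum was 2192.8 against 1895 to 2117.5, with 1 of 6 tested, *Pde10a*, higher. Astrocyte markers (28552 against 27416 to 28541) had *Gja1* higher and *Aldh1l1* lower of 7, and endothelial ones (1713.8 against 1488.4 to 1718.3) *Slc2a1* higher and *Cldn5* lower of 7. Of 6 microglial markers *Tyrobp* was higher (2079.4 against 2017.5 to 2205.1), and of 2 blood markers tested neither was called (5168.9 against 5406.5 to 8041.2). No listed marker of these groups that was on the array stood at 0. Only 4 values on the 5 arrays did, so this does not show that a marker was expressed. The part of these tissues and cell types in the values of the immediate early genes was not tested.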

How the data were processed

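The labels give 10 brain arrays, and the 5 of 1 week were used. The authors deposited 1 column of linear signal intensity per array, made with MAS5 as the submitters' processing notes state. In the table the trimmed mean was equal on all 5 (158.8). MAS5 subtracts mismatch signal, so low values are noisy, and detection calls were not used here. The 5 columns of 1 month served only to compare row order.

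After 4 zeros were set to 0.1, log2 was taken with no pseudocount. Control probe sets and those at or below the 50th percentile of mean log2 signal were left out. R 4.3.3 with limma 3.58.1 (lmFit, eBayes with trend) compared 4 CR arrays with 1 control array on 3 residual degrees of freedom. This takes the spread of the single control to be that of the CR arrays, and p-values measure the spread between pools at different levels, not between rats. The fit was tested on simulated data in which the control was drawn with the spread of the CR arrays. Such data cannot test whether that holds for the real control array. Other steps used matplotlib 3.10.9, numpy 2.4.6 and pandas 2.3.3 under Python 3.11.15.

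All members were named with every probe set of that single symbol, and *Fos* also with 1375043_at, taken by its identifier. A further 1, shared by *Homer1* and another gene, was left out. From each related list up to 5 called genes were named, largest change first, with family members of the 10 genes, *Bdnf* and *Per1* whether or not called. Members and lists were chosen with earlier results of these data known. Alternatives were median, quantile and cyclic loess scaling, a filter at the 75th percentile or none, 13.7 (the 20th percentile) added before log2, robust eBayes or no trend, each CR array left out in turn, 2-fold for 1.5-fold, the control as 0% in the slope, and the mean of all probe sets of a gene.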

Additional observations from a re-analysis of the deposited data

Results flagged for a closer look

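Among the 22 probe sets, each over the 4 CR arrays, 2 had an array set apart from the other 3, and about 1 in 20 such groups does so by chance. For *Junb* (1387788_at) the 5% CR array, at 42.0 against 119.6 to 133.1 on the others, was the lowest, and its gap to the next array made up 0.907 of the range of log2 signal. For *Dusp1* (1368147_at, below the filter) the 30% CR array, at 3.6 against 28.7 to 35.9, was the lowest, with a gap of 0.903 of the range. The brighter *Dusp1* probe set was highest on that same array, at 420.0.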

How the results depend on the processing

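Member probe sets called higher numbered 3 with any CR array left out, and those called lower 2 to 4. Over all probe sets 3958 were called at the main setting and 3425 to 4107 with a CR array left out. Median scaling gave 6074 calls, 1017 higher and 5057 lower, with 7 member probe sets lower. Beyond *Fos*, *Egr1* and *Nr4a3* these were *Nr4a1*, *Dusp1*, *Homer1* and *Jun* 1389528_s_at. Relative to the shift of all probe sets under it *Dusp1*, at -0.87, and *Homer1*, at -0.75, were lower by about the same amount as in the deposited scaling. Quantile scaling left 1 member probe set lower, that of *Fos*. Without a filter 6685 were called, 4943 of them higher, and member probe sets called higher went from 3 to 4, the added one being the second of *Fos*, opposite to the *Fos* decrease. With the filter at the 75th percentile 1295 were higher and the members past 1.5-fold on all 4 CR arrays fell from 6 to 3, as fewer were tested. A 2-fold limit also left 3. Without the intensity trend 1006 were lower. Robust eBayes called 1 probe set for 20 and 30% against 5 and 10% CR. *Fos* turned to 0.0386 in the mean of both its probe sets. Over the differences of the 10 members by brightest probe set and their alternatives, 105 values stayed the same, 9 moved, 6 gained and 5 lost the call, and 1, of *Fos*, reversed. Those counted as the same include values of probe sets that a setting did not test, where no call was made. Among the 9 that moved, *Junb* also changed sign, to -0.11 with median scaling. Causes other than those named were not tested. No paired analysis was possible because each group has 1 array.

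Every value against control rests on 1 pooled array that stands apart, and no alternative can leave it out. Signals under the filter cannot be told from background here.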
